A study of Mus musculus with 30 samples.

Results

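Focal cohesin regions are narrow stretches of the mouse genome at which cohesin was called in every one of the 6 NIH3T3 lists. They were chosen by merging the 6 lists on chromosomes 1 to 19, joining regions that overlap or touch, and keeping merged regions that all 6 lists overlapped and that were under 1000 bp wide. The selection gave 47205 members among 146915 merged regions (32.1%, exact 95% binomial interval 31.9 to 32.4) and among 50858 regions called in all 6 lists (92.8%, 92.6 to 93.0). The other 3653 six-list regions were 1000 bp wide or more and are called broad here, and 96057 merged regions were called in 1 to 5 lists.

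The series holds 30 mouse samples on nucleosomes, accessibility, methylation and protein binding around CTCF, and each is the only sample of its group. The lists used here are 6 of cohesin in NIH3T3, an immortalized line of embryonic fibroblasts, and 2 of Snf2h in CH12, a B lymphoma line. The NIH3T3+EV cells stably carry a CpG-free control plasmid that expresses beta-galactosidase (empty vector, EV), and the NIH3T3+BORIS cells stably express BORIS from a CpG-free plasmid and are a single clone, clone 2. In each of these lines SMC1, RAD21 and SMC3 were precipitated from formaldehyde-fixed, asynchronously growing cells. Snf2h was precipitated from wild-type CH12 cells (wtCH12) and from CH12 cells in which Cas9 had removed zinc fingers 9 to 11 of CTCF from both alleles (mutCH12). Neither CH12 line carried a plasmid. Each group has 1 list. No test between groups was made, since antibodies against different subunits are not replicates and the members were chosen by calls in both NIH3T3 lines.

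Cohesin is a ring-shaped complex that holds DNA strands together and extrudes chromatin loops. SMC1 and SMC3 are its paired arms with ATPase heads, and RAD21 is the kleisin subunit that closes the ring. In interphase, cohesin piles up in narrow peaks where the zinc-finger protein CTCF stops it. BORIS (CTCFL) is a paralog of CTCF with a closely related DNA-binding domain, normally expressed in male germ cells. Snf2h is the ATPase of ISWI chromatin remodellers, which slide and space nucleosomes, also around CTCF sites.

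The cohesin lists held between 80268 (BORIS RAD21) and 105041 (BORIS SMC3) regions on chromosomes 1 to 19, and the Snf2h lists held 16793 regions in wild-type and 23441 in mutant CH12. For each region the authors deposited a fold, the pileup of fragments at the summit over the local background, and a −log10 p. Both values together fixed a whole-number pileup for 100% of regions in each of the 8 lists. In each list the highest pileup was exactly 2 times the width of the narrowest region, 232 to 246 fragments in the cohesin lists, which is called the ceiling here. A limit of 1 fragment per position and strand would give this value, but no such setting is given in the sources used here. If such a limit applied, folds at the strongest regions would be compressed. Library totals were not used here, and pileups served as the depth behind each fold.

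The members were compact. Their merged width had a median of 438 bp, with quartiles of 325 and 591 bp and a range of 138 to 999 bp, and they covered 22.3 Mb in all. Broad regions had a median width of 1250 bp and reached 13672 bp. In 40446 members (85.7%) each list had exactly 1 region, and in 6759 at least 1 list had more. Only 50 members held 2 or more regions in all 6 lists.

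The width limit fell on a smooth tail of the distribution rather than in a gap. Widths of 950 to 999 bp were found in 595 members, and 489 six-list regions had widths of 1000 to 1049 bp. The named members just inside the limit were chr6:72114318-72115316 and chr3:102113637-102114635, both 999 bp wide. Named regions just outside it were chr4:119902498-119903497 and chr9:106320109-106321108, both 1000 bp wide. Empty-vector SMC1 folds were 30.7 and 11.1 inside the limit and 32.1 and 15.6 outside it. The 2 named pairs therefore overlapped in strength. All coordinates are on the lists' own build and are counted from 1, with both ends of a region included. The submitters' processing notes name the mouse build mm9, for which no sequence or gene annotation was used here.

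**Figure D1:**
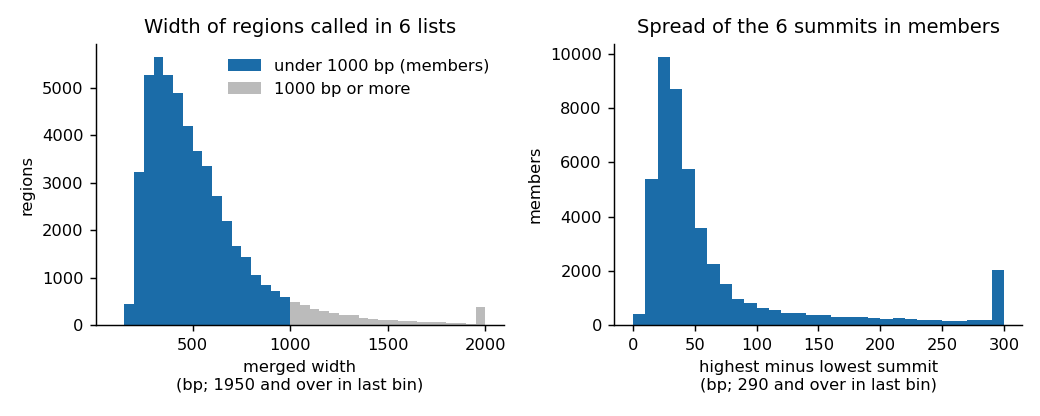
Left, number of six-list cohesin regions by merged width in bins of 50 bp, with members in blue and regions of 1000 bp or more in grey. Right, number of members by the distance between the highest and the lowest of their 6 summits in bins of 10 bp, with a median of 38 bp.

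All 6 lists placed the summit, the position of the highest pileup, at nearly the same base in most members. The distance between the outermost of the 6 summits had a median of 38 bp, and 90% of members were at or under 170 bp. It was at most 50 bp in 30613 members (64.9%) and at most 100 bp in 39364 (83.4%). Broad regions had a median of 136 bp. A narrow merged region bounds this distance, so the contrast with broad regions follows in part from the selection.

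Summits lay about equally close whether the antibody or the line differed. Summits of 2 antibodies in the same line were a median of 13 to 17 bp apart over 6 pairs of lists. Summits of the same antibody in EV and BORIS cells were 14 to 15 bp apart over 3 pairs. Where both antibody and line differed, summits were 15 to 17 bp apart over 6 pairs. Without replicate libraries, the distance that counting error alone would give is not known. Between 85.1% and 88.2% of members had summits within 50 bp of each other in the same-line pairs, and 86.5% to 87.6% in the same-antibody pairs. No list sat to one side, since the mean signed distance in the 15 pairs lay between −0.40 and 0.29 bp.

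Summits lay closer together in stronger members. Strength is given here as the percentile rank of a region's −log10 p within its own list, and a member's lowest percentile is the lowest of its 6 ranks. Members were divided into 10 classes of equal size (deciles), and from the weakest to the strongest decile by lowest percentile the median summit distance fell from 110 to 21 bp. Members with 1 region in each list had a median of 36 bp and those with more had 118 bp. The member chr3:68346736-68347631 had its 6 summits at 68347286 to 68347288, and chr9:24321045-24321659 had them at 24321483 to 24321485. Their lowest percentiles were 93.5 and 92.6. Ties in summit distance were broken by the higher lowest percentile, so this strength follows in part from the choice. The member with the closest summits, chr2:98502365-98503157, had a lowest percentile of 68.5.

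At the other extreme stood members in which the lists chose different maxima. In chr2:119303247-119304241 the EV summits lay at 119303316 (SMC1), 119303428 (RAD21) and 119303358 (SMC3). The BORIS summits lay at 119304125, 119303988 and 119303888, so the EV and BORIS lists chose opposite ends and the outermost were 809 bp apart. Pileups there were only 14 to 20 fragments in all 6 lists, and the RAD21 rank in EV cells was at percentile 1.10. In chr7:20518402-20519392 (779 bp) and chr17:57414152-57415115 (767 bp) the summits were divided in other ways. The EV SMC1, BORIS RAD21 and BORIS SMC3 summits of the chromosome 7 member were within 20519269 to 20519281, while the other 3 lay between 20518502 and 20518764. In the chromosome 17 member the 3 BORIS summits (57414260 to 57414277) and the EV RAD21 summit (57414235) were at one end, and the EV SMC1 (57414968) and SMC3 (57415002) summits at the other.

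Members were the strong end of every list, but not only that. Of the strongest 10% of regions in a list, 89.3% (BORIS SMC1) to 90.7% (EV SMC3) lay at members. Of the weakest 10%, 9.68% (EV SMC1) to 30.5% (BORIS RAD21) did. Members held 47.0% to 61.2% of each list. In 4709 members (9.98%) all 6 ranks were in the top 10%, and in 1704 (3.61%) all 6 were in the lower 50%. Since membership required a call in every list, these shares describe the selection.

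Median folds at members were highest with SMC3 and lowest with SMC1 in both lines. In EV cells the median fold was 12.5 with SMC1, 13.5 with RAD21 and 14.0 with SMC3, and in BORIS cells it was 9.71, 10.5 and 11.6. The median pileups were 36, 36 and 40 fragments in EV cells and 29, 28 and 33 in BORIS cells. RAD21 had the widest range, with 10% of EV members at or under 5.05 and 10% at or above 43.9. Antibodies differ in efficiency, so levels are not comparable between subunits as amounts of protein.

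**Figure D2:**
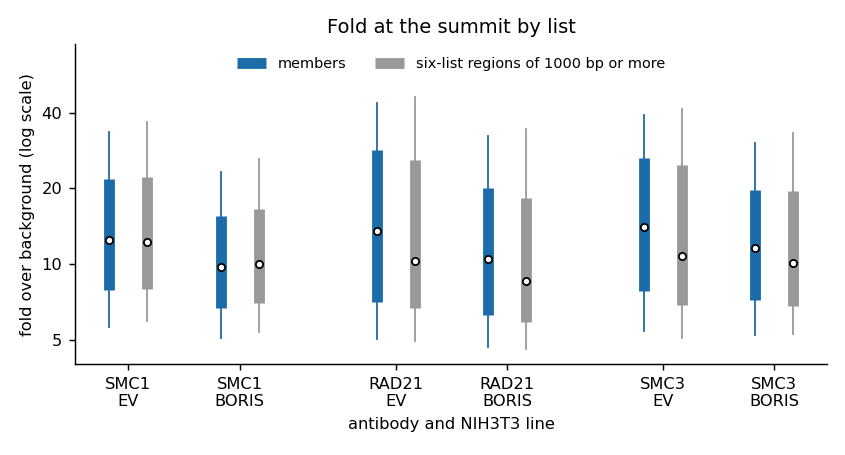
Deposited fold over background (log scale) in each of the 6 lists, for members (blue) and six-list regions of 1000 bp or more (grey). Circles are medians, thick bars the quartiles and thin lines the 10th to 90th percentiles over regions, and the BORIS medians lie under the EV medians with each antibody.

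The strongest member was chr19:43698323-43699018, 696 bp wide. Its folds were 88.7 (SMC1), 88.5 (RAD21) and 93.8 (SMC3) in EV cells and 85.0, 89.6 and 95.0 in BORIS cells. The pileups were 206, 196 and 223 in EV cells and 201, 199 and 224 in BORIS cells, and the 6 summits lay within 8 bp. All 6 values were near the ceiling, and the lines hardly differed here. Next by lowest percentile came chr19:5001685-5002652, chr1:182198595-182199380 and chr12:112664077-112665018. Their folds were 60.3 to 77.6, 59.3 to 74.9 and 55.2 to 71.4 over the 6 lists. The fifth and sixth were chr13:31892890-31893736, with folds of 64.8 to 94.4, and chr3:104795546-104796171, with folds of 50.1 to 64.3. In these 5 members each antibody gave the lower fold in BORIS cells, with log2 ratios between −0.26 and −0.04.

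Some members combined a high pileup with a low fold. In 49 members on 16 chromosomes the background rate recovered from fold and p was 20 fragments or more in all 6 lists. Over these members and lists the fold had a median of 2.48 and the pileup a median of 142 fragments. The member whose summits lay closest together, chr2:98502365-98503157, was one of them, with all 6 summits at 98502525 or 98502526. Its pileups stood at the ceiling in every list, 232, 234 and 234 fragments in EV and 242, 246 and 246 in BORIS cells, while its folds were 2.26 to 2.68. In the other members the median background rate was between 1.72 and 2.03 fragments in each list.

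The lists ordered the members alike. Spearman's rho of the fold over the 47205 members was 0.81 to 0.91 for 2 antibodies in the same line and 0.81 to 0.89 for the same antibody in the 2 lines. It was 0.74 to 0.84 where both antibody and line differed. These are correlations across regions of single libraries that share local background and sequence, and regions are not replicates.

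The ratio of RAD21 to SMC1 fold differed with strength, which may be a property of the antibodies or of the sites, and the 2 cannot be told apart. To avoid ranking members by the values compared, the RAD21 fold was set against the SMC1 fold in deciles of members ranked by SMC3. In EV cells the median log2 ratio of RAD21 to SMC1 fold was −0.28 in the weakest decile (folds of 5.11 and 6.29) and 0.33 in the ninth (35.3 and 28.4). In BORIS cells it went from −0.20 to 0.40 between the same deciles. In the strongest decile it was lower again, at 0.26 and 0.35. The ratio therefore crossed 0 in both lines, with the SMC1 fold the higher at weak members and the RAD21 fold the higher at strong ones. In the strongest decile of members by lowest percentile, 89.9% had an EV RAD21 pileup of at least 50% of the ceiling against 57.9% for EV SMC1. Over members, the RAD21 to SMC1 ratios of the 2 lines, which share no library, had a Spearman's rho of 0.64.

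Cohesin signal at members was lower in BORIS than in EV cells with each antibody. The median log2 ratio of BORIS to EV fold was −0.38 with SMC1, −0.33 with RAD21 and −0.27 with SMC3, ratios of 0.767, 0.794 and 0.831. The fold was lower in BORIS cells in 76.8%, 76.0% and 70.9% of members. With 1 added to each value, the recovered pileups gave −0.35, −0.32 and −0.28. The background rates, treated alike, differed by 0.02, 0.00 and −0.01, and the added 1 shrinks differences between low rates. Membership used calls in both lines, so these are descriptions. Fewer fragments from a weaker precipitation and less cohesin per site cannot be told apart with 1 library each.

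A rank within a list removes any overall shift between lists and moves with the length of the list. The median change in percentile from EV to BORIS was −1.33 points with SMC1, −0.634 with RAD21 and 0.183 with SMC3. The EV and BORIS lists differ in length, so these medians measure neither a change nor its absence. Single members moved widely, and 10% of them fell by at least 23.8 points with SMC1 while 10% rose by at least 15.3. Broad regions had median log2 fold ratios of −0.31, −0.31 and −0.15.

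The lower fold in BORIS cells was more marked at stronger members, which the selection favours: a weak member with a much lower BORIS fold would not have been called in all 3 BORIS lists. Each antibody's ratio was taken in deciles of members ranked by the other antibodies. With SMC1 the median log2 ratio went from −0.18 in the weakest decile to −0.56 in the eighth and was −0.46 in the strongest. With RAD21 the same deciles had −0.10, −0.48 and −0.39, and with SMC3 −0.02, −0.43 and −0.29. Pileups were highest in the strongest decile, and 7518 members (15.9%) had at least 50% of the ceiling in some list. A correction of the pileup for the ceiling, added after the data were seen, which assumes that the limit applied and that fragment ends spread evenly, gave −0.65, −0.65 and −0.54 in the strongest decile. With it, SMC1 and RAD21 no longer rose from the eighth decile (−0.62 and −0.60) to the strongest, while SMC3 still rose slightly, from −0.56. Without it, the pileups gave −0.43, −0.38 and −0.30 in the strongest decile.

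**Figure D3:**
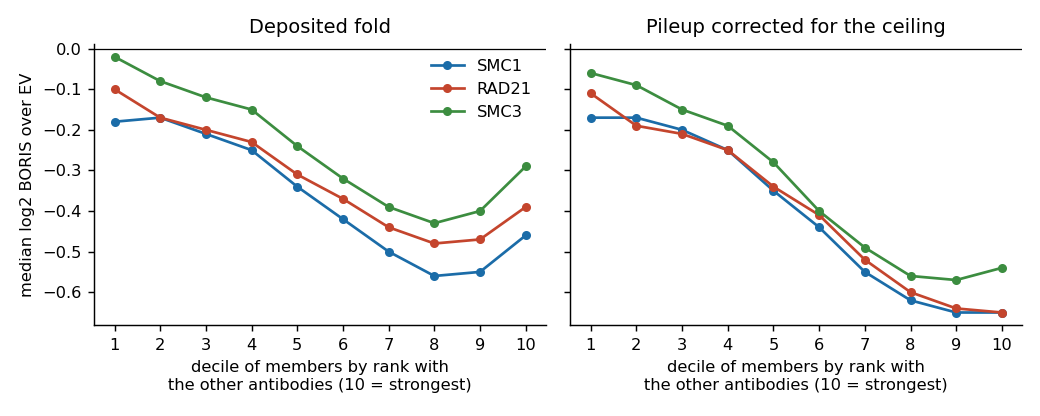
Median log2 ratio of BORIS to EV at members for each antibody, by decile of members ranked with the other antibodies (10 is the strongest). The deposited fold is on the left and the recovered pileup corrected for its ceiling on the right, and the rise from the eighth to the strongest decile seen on the left with all 3 antibodies is absent on the right with SMC1 and RAD21.

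Past 1.5-fold with all 3 antibodies, 4864 members (10.3%, 10.0 to 10.6) were lower in BORIS cells and 496 (1.05%, 0.961 to 1.15) were higher. Over all six-list regions the same thresholds were passed by 9.89% and 0.997%, a set that consists mostly of the members. Broad regions passed them in 4.54% (lower) and 0.301% (higher). When each antibody was centred on its median over six-list regions, 2.22% of members were lower and 3.61% higher, so the direction of the imbalance depended on the overall shift between lists. Counting intervals of the pileup were apart with all 3 antibodies in 1714 of the lower members (35.2%), 74 of the higher members (14.9%) and 388 of the other 41845 (0.927%). The first 2 classes were selected on the same difference.

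The lower members had folds well above the member median in EV cells and close to it in BORIS cells. Their median folds were 20.1, 24.1 and 24.5 with SMC1, RAD21 and SMC3 in EV cells and 9.67, 12.1 and 12.6 in BORIS cells. The higher members went the other way, from 6.38, 6.10 and 7.62 in EV cells to 13.5, 12.3 and 16.0 in BORIS cells. They were also narrower, with a median width of 342 bp against 423 bp for lower and 442 bp for the remaining members. Selection on the ratio itself favours such opposite starting levels.

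The most reduced member was chr12:120093384-120094025. Its pileups were 139, 192 and 152 fragments with SMC1, RAD21 and SMC3 in EV cells and 19, 15 and 14 in BORIS cells. The folds were 31.8, 43.0 and 33.9 against 4.18, 3.40 and 3.49, log2 ratios of −2.93, −3.66 and −3.28. It stood in the top 10% of every EV list (percentiles 96.0 to 98.2) and at percentiles 7.26 to 27.3 of the BORIS lists. Next were chr7:144513135-144513535, with EV pileups of 60, 81 and 63 and BORIS pileups of 14, 22 and 15, and chr2:115681520-115681880. The latter had 72, 84 and 88 fragments in EV and 16, 22 and 22 in BORIS cells. These 3 members were chosen by this ratio, so the gap between the lines is a description of the choice.

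The most increased member was chr5:40024419-40024941. Its pileups were 12, 12 and 15 fragments in EV cells and 56, 63 and 62 in BORIS cells. The folds rose from 4.81, 5.10 and 5.80 to 21.2, 25.8 and 23.8, log2 ratios of 2.14, 2.34 and 2.04. In chr11:56187628-56188281 the pileups were 13, 15 and 10 against 47, 51 and 47. In chr6:29127852-29128257 they were 14, 13 and 24 against 59, 50 and 81. These members ranked at percentiles 21.4 to 60.1 of the EV lists and 82.4 to 93.4 of the BORIS lists.

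The antibodies, whose libraries are separate, gave related changes member by member. Spearman's rho of the log2 BORIS to EV ratio over the 47205 members was 0.51 for SMC1 with RAD21, 0.56 for SMC1 with SMC3 and 0.53 for RAD21 with SMC3. After the median of each chromosome was removed it was 0.48, 0.53 and 0.50. The points share the 2 cell lines and the local sequence.

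The size of the difference depended on the chromosome. On 19 of 19 chromosomes the median log2 ratio was below 0 with all 3 antibodies. Chromosome 14 had the lowest medians, −0.76 with SMC1, −0.71 with RAD21 and −0.63 with SMC3 over 1406 members, followed by chromosome 8 (−0.63, −0.57 and −0.51) and chromosome 12 (−0.57, −0.51 and −0.45). Chromosome 4 had the medians nearest 0, at −0.18, −0.13 and −0.07 over 3264 members. With each antibody, chromosomes 14, 8, 12 and 7 were the lowest in this order, and chromosomes 4, 5 and 11 were nearest 0.

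Members that passed 1.5-fold followed the chromosome too. On chromosome 14, 509 members (36.2%) were lower and 6 (0.427%) higher, and on chromosome 4 the counts were 129 (3.95%) and 79 (2.42%). The background rates, for which the control is not given in the sources used here, were compared after 1 was added to each. Their median log2 ratio was between −0.01 and 0.03 on every chromosome with each antibody. The added 1 shrinks differences between low rates. Pileups, also with 1 added, gave −0.74, −0.69 and −0.65 on chromosome 14 and −0.15, −0.12 and −0.08 on chromosome 4. The BORIS line is 1 clone, so a difference of the clone and an effect of BORIS cannot be told apart.

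**Figure D4:**
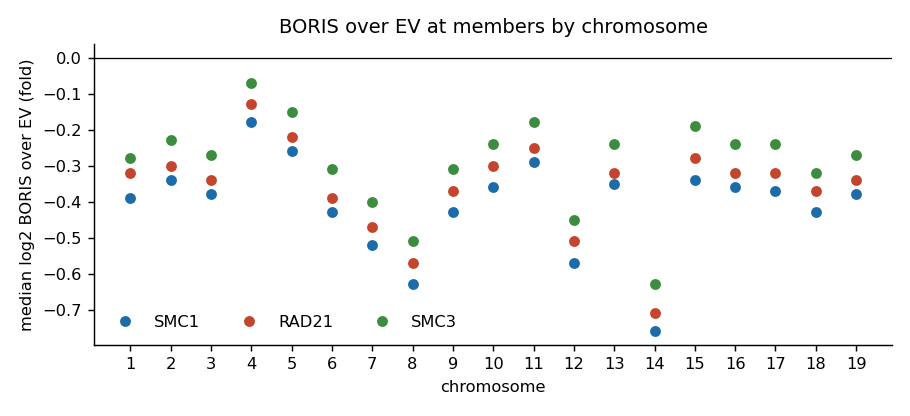
Median log2 ratio of BORIS to EV fold at members on each of the 19 chromosomes (horizontal axis), with 1 point per antibody and no error bars since each is 1 pair of libraries. All points lie below 0, with chromosome 14 lowest (−0.76 to −0.63) and chromosome 4 highest (−0.18 to −0.07).

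Snf2h in the B cell lines was found at a small share of the fibroblast members. The selection did not use the Snf2h lists. A Snf2h region within 250 bp of the member's centre (from its nearest edge to the median of the 6 summits) was found at 3635 members in wild-type CH12 (7.70%, 7.46 to 7.94) and at 4447 in mutant CH12 (9.42%, 9.16 to 9.69). Over all merged cohesin regions the shares were 4.2% and 5.83%. Regions of 1 to 5 lists had 2.27% (2.18 to 2.37) and 3.69% (3.57 to 3.81), and broad regions had 9.88% (8.93 to 10.9) and 15.8% (14.6 to 17.0). Thus the share at members was above that at regions of fewer lists in both lines beyond counting error, and below that at broad regions.

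Pooled over members, the excess of mutant over wild-type Snf2h regions was smaller than in the other classes. The mutant list was longer, by a ratio of 1.40, and the counts at members had a ratio of 1.22. Regions of 1 to 5 lists had a ratio of 1.62, broad regions 1.60, and Snf2h regions that overlapped no cohesin region 1.41. Members with Snf2h in the mutant alone numbered 2526 and those with it in the wild type alone 1714, a ratio of 1.47 (1.39 to 1.57). At regions of fewer lists this ratio was 2.74 (2.52 to 2.97) and at broad regions 3.12 (2.49 to 3.94). The interval at members overlapped that of neither class, but regions are not replicates and each line has 1 list. The ratio of counts depended on strength, however. By lowest percentile it was 1.72 and 1.54 in the 2 weakest deciles of members, near that of regions of fewer lists, and between 1.06 and 1.18 in the 5 strongest.

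The same order was seen when both Snf2h lists had the same length. With the strongest 16793 regions of each list, members had 3635 wild-type and 3049 mutant counts, a ratio of 0.839, while regions of fewer lists had 1.15, broad regions 1.14 and Snf2h regions without cohesin 1.03. When the Snf2h lists were restricted to −log10 q of 10 or more, the ratios were 1.74 at members, 1.91 at regions of fewer lists and 1.98 at broad regions, and 1.83 over the lists. The direction at members thus turned with the list length, while members had the lowest of the 3 ratios under each of these settings. With the −log10 q limit the ratio of mutant-only to wild-type-only counts was 3.61 (2.93 to 4.48) at members and 5.27 (2.74 to 11.1) at broad regions, whose intervals overlap, and 6.13 (4.76 to 7.99) at regions of fewer lists. At equal list length it was 0.715 (0.668 to 0.765) at members, 1.36 (1.09 to 1.70) at broad regions and 1.34 (1.23 to 1.46) at regions of fewer lists. A difference between the 2 libraries and an effect of the deletion cannot be told apart.

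Of the 3635 members with a wild-type Snf2h region, 1921 (52.8%) also had a mutant one. At regions of fewer lists 64.1% did and at broad regions 71.7%. Read from the mutant, 43.2% of the members with a mutant Snf2h region also had a wild-type one, against 39.4% at regions of fewer lists and 44.9% at broad regions. The order of the classes thus depended on which list was taken as the start. Where a member had both, the median Snf2h fold was 3.69 in the wild type and 4.19 in the mutant, and the median log2 ratio was 0.18. Over 9508 pairs of Snf2h regions shared by the lists it was 0.23.

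Snf2h was found most often at the strongest members. In the weakest decile by lowest percentile the share was 4.34% (3.78 to 4.96) in wild-type and 7.48% (6.74 to 8.26) in mutant CH12, and in the strongest it was 15.4% (14.4 to 16.4) and 18.2% (17.1 to 19.3). In the sixth the shares were 6.81% (6.10 to 7.56) and 7.40% (6.67 to 8.19). The mutant share fell from 7.48% in the weakest decile to 6.37% (5.69 to 7.11) in the third and climbed to 7.40% in the sixth, with overlapping intervals. It rose further in the 4 strongest. The mutant list was the longer, and the deciles were not compared at equal list length. Members with a lowest percentile above 75 had 12.5% in the wild type, with an upper bound of 13.1%. Broad regions with a lowest percentile above 75 had 18.1%, with a lower bound of 16.0%. Strength was not matched within such classes. In the weaker classes the wild-type shares of members and broad regions had overlapping intervals, with 4.29% and 3.10% up to percentile 25, 5.05% and 5.29% up to 50, and 7.31% and 7.28% up to 75. The wild-type intervals of members and broad regions were thus apart in the strongest class alone. In the mutant they were apart in the 3 upper classes, with 6.62% and 10.2%, 8.08% and 13.2%, and 14.4% and 25.4% at members and broad regions.

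The share rose with width as well. Members under 300 bp had 3.47% in wild-type and 3.41% in mutant CH12, with intervals that overlapped almost fully. Members of 800 to 999 bp had 11.0% (9.93 to 12.1) and 16.4% (15.2 to 17.8). The gap between the deposited lists was thus wider in wider members, and the width classes were not compared at equal list length. The median lowest percentile rose from 31.5 under 300 bp to 76.4 from 600 to under 800 bp, and was 57.9 at 800 to 999 bp. Strength and width thus moved together only below 800 bp, while the Snf2h shares were highest in the widest class.

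**Figure D5:**
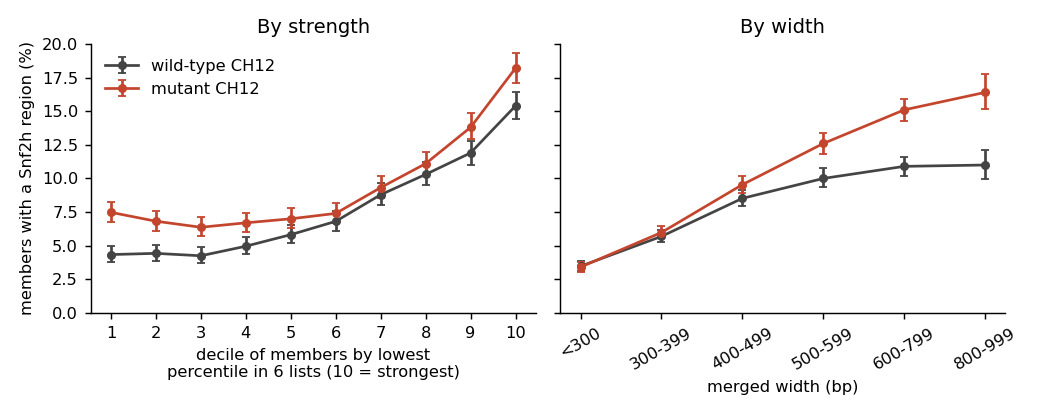
Percent of members with a Snf2h region within 250 bp of their centre in wild-type (black) and mutant (red) CH12, by decile of members by lowest percentile (left) and by merged width (right). Bars are exact 95% binomial intervals of counting error, and the mutant share rises from 3.41% to 16.4% over the width classes.

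Snf2h regions were selected by the distance of their nearest edge, which limits how far their summits can lie from the cohesin centre, so the distances are a description. The median distance was 72 bp in wild-type and 88.5 bp in mutant CH12, with upper quartiles of 132 and 164 bp. Mutant regions were also wider, with median widths at members of 284 bp against 234 bp in the wild type. Over the lists the widths were 278 and 238 bp. Wider regions allow more distant summits and reach more centres, and the part of width was not tested. They fell to both sides alike, with 1818 on the lower and 1811 on the higher coordinate side in the wild type and 2259 and 2179 in the mutant. Snf2h regions at members were of ordinary strength, with a median fold of 3.59 in the wild type and 3.86 in the mutant against 3.59 and 3.90 over the lists. They made up 21.6% of the wild-type and 18.9% of the mutant list.

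Of the strongest members, chr19:43698323-43699018 had Snf2h in both lines, with folds of 6.16 and 7.37 and summits 253 and 254 bp below the centre. The next with both were chr1:184920747-184921724, with Snf2h folds of 4.35 in wild-type and 6.51 in mutant cells, and chr11:120637186-120637847, with 4.28 and 3.58. In the first of these the summits lay 57 and 100 bp below the centre, and in the second they lay 59 bp above it and 77 bp below it. The mutant fold was the higher in 2 of these 3 members. Among the 6 strongest members, 1 had Snf2h in both lines, 1 in the wild type alone, 3 in the mutant alone and 1 in neither.

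Snf2h was least frequent at members higher in BORIS cells. The wild-type share was 7.05% (6.35 to 7.81) at members lower in BORIS, 3.43% (2.01 to 5.43) at those higher in BORIS and 7.83% (7.57 to 8.09) at the rest. The mutant shares were 8.18% (7.43 to 8.99), 5.65% (3.78 to 8.06) and 9.61% (9.33 to 9.90). The intervals of lower members overlapped those of the rest in the wild type and those of higher members in the mutant. Their median lowest percentiles were 65.5, 29.8 and 54.7, so the class with the least Snf2h was also the weakest. The part of strength in this order was not tested.

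Members were spread over all 19 chromosomes, often near each other. The nearest neighbouring member was a median of 8.80 kb away, with quartiles of 3.22 and 21.3 kb. It was within 5 kb for 16461 members (34.9%) and over 100 kb away for 1513. Density went from 11.5 members per Mb on chromosome 14 to 30.9 on chromosome 11. Broad regions lay a median of 6.37 kb from the nearest member, and regions of fewer lists 8.79 kb. Chromosome 14, the sparsest, also had the highest wild-type Snf2h share at members, 13.3%, against 5.85% to 9.30% on the other chromosomes. Its mutant share was the highest too, 14.7% against 7.39% to 11.4%.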

How the data were processed

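Peak lists of 8 ChIP-seq libraries were used, and the other samples were not analysed here. The submitters' processing notes name Bowtie2, Bowtie, SAMtools, MACS2 and deepTools 3.5.0 and the builds mm9 and hg19, with no role or order. The caller's settings, the control and the filters are not given in the sources used here. Files are headerless narrowPeak tables of 10 columns. The authors deposited a score, a fold (a ratio of summit pileup to local background, with 1 added to both), and −log10 p and −log10 q values for each region. The deposited summit offset was read as another value, in bp from the region start. These values are the authors' and served to describe, rank or filter regions. Region names in both Snf2h files carry a replicate tag that may stand for a pool, about which the labels are silent.

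With Python 3.11.15, pandas 2.3.3, numpy 2.4.6 and scipy 1.17.1, the 6 cohesin lists were merged on chromosomes 1 to 19, and each list gave its strongest region (by −log10 p) in a merged region. Fold and −log10 p were solved for the Poisson pileup and background rate, and a pileup counted as whole when it returned the −log10 p within 0.001. The merge, summit and pileup steps were tested on simulated data. Shares carry exact (Clopper-Pearson) 95% intervals, pileups exact Poisson intervals, and ratios of counts exact intervals. All cover counting error only, fragments are not independent molecules, and neighbouring regions are not independent. Groups came from the labels. Each had 1 deposited list, and no p-value is given.

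The members, classes and lists were chosen with earlier results of these data known. Regions named individually, outside chromosome 18, were the 6 members of highest lowest percentile, the 3 with the highest minimum and the 3 with the lowest maximum log2 BORIS to EV ratio over antibodies, the 2 on either side of the width limit, the 3 with the tightest and the 3 with the widest summits, and the 3 strongest with Snf2h in both CH12 lines. Ties in summit distance went to the higher lowest percentile. No sequence, motif or gene was read, because no genome of the lists' build was used here.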

Additional observations from a re-analysis of the deposited data

How the results depend on the processing

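A count, the summit spread and the mutant to wild-type ratio at regions of fewer lists were taken to stay within 1.5 times their value. A share, and that ratio at members, stayed within its 95% interval, and a median log2 ratio within 0.06, the SD over the 3 antibodies. For percentile ranks only the sign was compared. By these limits 63 of 106 values stayed, 41 moved and 2 reversed under 16 alternatives; the cause was not tested. The ceiling correction and the mutant to wild-type ratio were added after seeing the data. Widths under 750 bp gave Snf2h shares of 7.34% (wild type) and 8.68% (mutant), and widths under 1500 bp a mutant share of 9.79%. A −log10 q of at least 10 in the cohesin lists gave 27676 members, Snf2h shares of 10.1% and 11.4%, and median log2 BORIS to EV ratios of −0.45 (SMC1), −0.40 (RAD21) and −0.33 (SMC3). Equal numbers of cohesin regions gave Snf2h shares of 8.20% and 9.85%, leaving out SMC1 7.31% and 9.07%, and leaving out RAD21 7.01% and 8.98%. A distance of 1 kb gave 10.3% and 13.1%, and a −log10 q of at least 10 in the Snf2h lists 0.860% and 1.5%. Equal numbers of Snf2h regions gave a mutant share of 6.46% and reversed the mutant to wild-type ratio from 1.22 to 0.839. The median SMC3 difference in percentile rank was above 0, at 0.183 points, but ranks in lists of unequal length do not measure a change. Centring on six-list regions gave medians of −0.01, 0.00 and −0.01 by construction, and 2.22% lower and 3.61% higher members; past 2-fold, 1.30% were lower and 0.227% higher. The ceiling correction gave −0.42 for RAD21 and −0.36 for SMC3. Low pileups limit weak members, whose calls near the threshold can differ by counting error. Motif and gene alternatives were not run, and a rank difference has no 1.5-fold share. The labels carry no replicate numbers, no paired test was made and no result comes from a test. The 3 pairs of lists with the same antibody were described one by one, and a fit over them was not run.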
